A study of Rattus norvegicus with 6 samples.

Results

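The circadian clock was followed through 10 genes, *Bmal1*, *Clock*, *Per1*, *Per2*, *Per3*, *Cry1*, *Cry2*, *Nr1d1*, *Nr1d2* and *Dbp*, in islets of male Wistar rats at 3 and at 12 months of age. Islets hold the insulin-secreting beta cells and the other endocrine cells of the pancreas. The members were chosen by name, and the probes of the array were assigned to them through the RefSeq accession of the transcript that each probe was designed on. A probe was matched for 9 of the 10 genes, out of 13903 genes named on the array, and 8 of the 9 passed the filter on dim probes and were tested. No probe was matched for *Nr1d2*, and *Clock* failed the filter. The 2 groups differed in age and shared strain, sex and preparation, with no drug or genetic change. Both were killed with CO2, islets were released by collagenase, and total RNA was labelled with Cy3 and hybridised to 1-colour arrays, with 3 arrays of each age. The series describes 3 rats of each age, although no label ties an array to an animal, and p-values measure the spread between these arrays. The time of day at which the islets were taken is not given in the sources used here. The paper's methods describe culture of isolated islets in RPMI medium, and the time in culture before RNA was taken is not given either.

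The clock is a transcriptional loop that runs in nearly every cell. The proteins BMAL1 and CLOCK bind DNA as a pair and activate the *Per* and *Cry* genes, and PER and CRY proteins then silence BMAL1 and CLOCK. A second loop runs through REV-ERB alpha and beta, the products of *Nr1d1* and *Nr1d2*, which are activated by the same pair and repress *Bmal1*, while the ROR receptors compete with them at the same DNA element and activate it. The output factor DBP, with its relatives TEF and HLF, carries the rhythm to other genes through D-box elements. In a rhythmic tissue the transcript of *Bmal1* peaks at roughly the opposite time of day to those of *Nr1d1*, *Dbp* and *Per3*. In beta cells the clock is known for its part in insulin release.

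The sequences next to the starts of these genes were searched for the letters of elements known from clock genes. RefSeq windows on the GRCr8 assembly, from 250 bases before to 50 bases after the annotated start, were held for 9 of the 10 genes (*Cry1* had no entry), and were searched on both strands. The letters were CACGTG (E-box, bound by BMAL1 and CLOCK), its variant CACGTT, TTATGTAA and TTACGTAA (D-box), AGGTCA (the core half-site of the REV-ERB and ROR element) and TGACGTCA (CRE, the cyclic AMP response element). The stretches that hold a match are shown 5′ to 3′ on the strand of the gene, with the matched letters in capitals. No match listed here shares bases with another.
Bmal1, half-site, chr1:176766301-176766330, plus strand: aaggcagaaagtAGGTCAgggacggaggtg
Nr1d2, half-site, chr15:9954835-9954864, plus strand: gattggaaggagAGGTCAggaacgcgcata
Nr1d1, E-box, chr10:84229628-84229657, minus strand: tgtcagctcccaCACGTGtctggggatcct
Nr1d1, E-box variant read on the other strand, chr10:84231969-84231998, minus strand: cgcatagagctcAACGTGcccgctgctgga
Per2, E-box variant, chr9:99497038-99497067, minus strand: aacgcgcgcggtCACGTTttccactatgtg
Per2, D-box, chr9:99497167-99497196, minus strand: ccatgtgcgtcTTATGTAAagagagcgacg
Cry2, E-box variant read on the other strand, chr3:98860632-98860661, minus strand: acacatggtgggAACGTGagggggcggggc

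The half-site was thus found in *Bmal1* and *Nr1d2*, and in 16.2% of all 33469 windows. The E-box was found in *Nr1d1*, which has a pair of annotated starts, and in 6.42% of windows, its variant in *Per2*, *Cry2* and *Nr1d1* and in 4.83% of windows. The D-box TTATGTAA was found in *Per2* and in 0.893% of windows. No member held TTACGTAA, found in 0.12% of windows, or TGACGTCA, found in 1.83%. The windows of *Clock*, *Per1*, *Per3* and *Dbp* held none of these letters. A match is a description of the sequence and not a site shown to be bound, and elements outside these windows were not searched.

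The arrays of each age shared a scan time that differed between the ages, and age therefore cannot be told apart from scan. Between 73.1% and 77.5% of the 24684 probes were well above background on the 3-month arrays and between 59.5% and 64.2% on the 12-month arrays. The negative control spots had median signals of 29.5 to 31 scanner units at 3 months and 89.5 to 91 at 12 months. Before normalization, the median signal of 3-month replicate 1 was 43.6 scanner units, against 94.0 to 199 on the other 5 arrays. Insulin, glucagon, somatostatin and pancreatic polypeptide transcripts (*Ins1*, *Ins2*, *Gcg*, *Sst*, *Ppy*) were well above background on all 6 arrays, and their log2 differences between the ages lay between -0.12 and 0.44. *Iapp*, a further islet hormone transcript, differed by 0.95. Quantile normalization gives the brightest probes nearly the same values on every array. *Gcg* was thus at 18.01 on each 3-month array, although its signals before normalization ran from 133292 to 259668. Like islet content at both ages is therefore not shown. All values below are log2 units of quantile-normalized signal, and a difference of 1 is a fold of 2. Differences are 12-month minus 3-month. Levels of different probes are not compared.

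**Figure D1:**
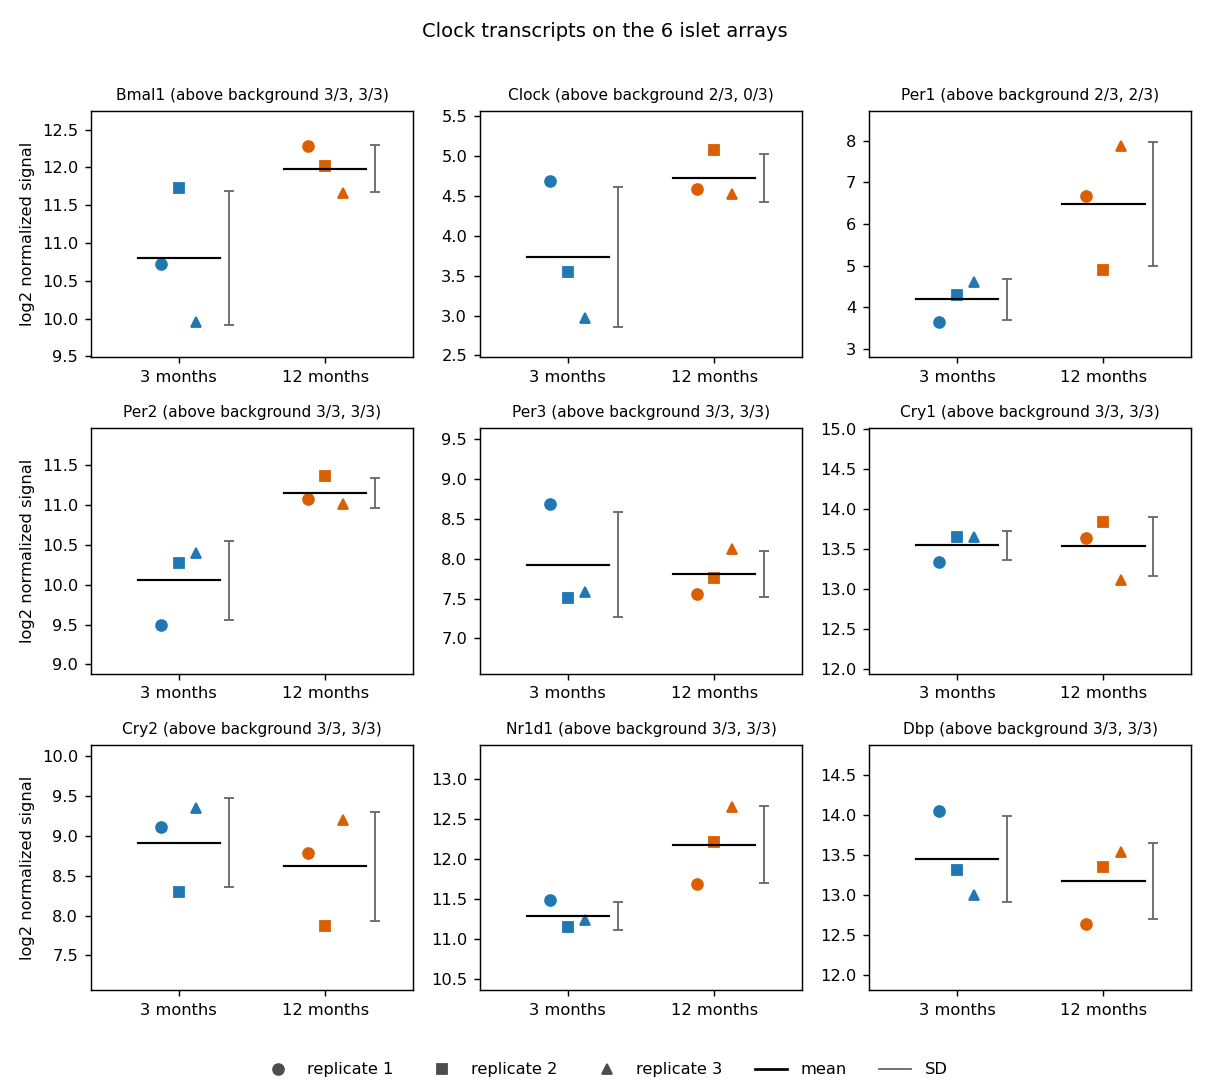
Log2 quantile-normalized signal (vertical axes, each panel with its own range) of the 9 clock genes with a probe on the 3 arrays of each age, with the group mean (black line) and SD (grey bar, drawn beside the points). Panel titles give the number of arrays well above background at 3 months and then at 12 months. All 12-month points lie above all 3-month points for *Per1*, *Per2* and *Nr1d1* only.

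None of the 8 tested members passed an adjusted p of 0.05 in either direction (limma, Benjamini-Hochberg over 17943 probes), a threshold passed by 8.34% of all probes, 5.31% higher and 3.03% lower. The study's cut-offs, an unadjusted p below 0.05 with more than a 2-fold difference, were applied here to limma's p in place of the study's own test, and are called the fold threshold below. By this rule *Bmal1*, *Per1* and *Per2* were called higher at 12 months and none was called lower, whereas at the same cut-offs the methods' t-test called *Per2* alone and its paired form called 0 members. Of all probes, 22% were called in this way, 10.1% higher and 11.9% lower. With the unadjusted p alone *Nr1d1* joined them, giving 4 of 8 members, all higher, against 32.4% of all probes, 13.7% higher and 18.8% lower. After the same adjustment, 0 members and 0 of the other clock genes tested passed with the methods' t-test. The median difference of the 8 members was 0.44, against -0.17 over all tested probes. The smallest p that an exact permutation test of 3 arrays against 3 can give is 0.1, two-sided, and *Per1*, *Per2* and *Nr1d1* reached it. Any probe whose groups do not overlap reaches it, as was so for 39.1% of all probes.

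On the activating side, the normalized level of *Bmal1* was 12.28, 12.02 and 11.66 on 12-month replicates 1, 2 and 3, and 10.72, 11.72 and 9.96 on 3-month replicates 1, 2 and 3. The 3-month arrays spread over more than a log2 unit, and 3-month replicate 2 lay above the lowest 12-month array, so that the groups overlapped. The means were 11.98 ± 0.31 and 10.80 ± 0.89 (SD, n = 3), a difference of 1.19 (limma SE 0.46, 95% interval 0.08 to 2.29, adjusted p 0.135) or 2.27-fold. Without 3-month replicate 2, the highest array of its age, the difference was 1.65, and without 3-month replicate 3, the lowest, it was 0.76.

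*Clock*, the partner of *Bmal1*, was close to background. Its level was 4.59, 5.07 and 4.52 on the 12-month arrays, none of which was well above background, and 4.69, 3.54 and 2.97 on the 3-month arrays, of which 2 were. Since the age with the higher mean had no array above background, no fold is given. *Npas2*, which encodes a protein that can replace CLOCK, was above background on all arrays, with 10.25, 11.08 and 10.33 at 12 months and 10.69, 11.05 and 10.78 at 3 months. The ages of *Npas2* overlapped, with a difference of -0.28 (limma SE 0.30, adjusted p 0.533). For *Bmal2*, a paralogue of *Bmal1*, and for the receptor genes *Rora* and *Rorb* no probe was matched.

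Of the repressors that close the main loop, *Per1* and *Per2* were higher at 12 months and *Per3* differed by less than the spread between arrays. *Per1*, the period gene most quickly induced by hormonal and second messenger signals, had a level of 6.67, 4.90 and 7.87 on the 12-month arrays and 3.65, 4.30 and 4.62 on the 3-month arrays. Its groups did not overlap, as was so for 39.1% of all probes, 16.5% with the 12-month arrays higher and 22.6% with them lower. The difference was 2.29 (limma SE 0.72, 95% interval 0.57 to 4.01, adjusted p 0.0889), the widest interval of the 8 members. This probe was dim, and it was not well above background on 12-month replicate 2 and on 3-month replicate 1. Without 12-month replicate 2 the difference was 3.08 and passed the adjusted threshold (adjusted p 0.0225), and with background correction by normexp, whose offset compresses dim signals, it was 0.98 (adjusted p 0.128).

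*Per2* was bright on every array, with 11.07, 11.36 and 11.01 at 12 months and 9.49, 10.28 and 10.40 at 3 months. The 12-month arrays lay within a narrow band above the 3-month arrays, among which 3-month replicate 1 was lowest. The means were 11.15 ± 0.19 and 10.06 ± 0.49 (SD, n = 3), a difference of 1.09 (limma SE 0.31, 95% interval 0.35 to 1.83, adjusted p 0.0730) or 2.13-fold. This was the lowest adjusted p among the members. Without 3-month replicate 1 the difference was 0.81, short of a fold of 2.

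*Per3* had a level of 7.55, 7.75 and 8.12 at 12 months and of 8.69, 7.51 and 7.58 at 3 months, with the highest and the lowest array both in the younger group. The difference was -0.12 (limma SE 0.38, 95% interval -1.02 to 0.79, adjusted p 0.846). Its sign turned without 3-month replicate 1, to 0.26. For *Cry1*, which encodes a strong repressor of BMAL1 and CLOCK, the level was 13.64, 13.84 and 13.12 at 12 months and 13.34, 13.65 and 13.65 at 3 months. The arrays of both ages lay within the same range, and the difference of *Cry1* was -0.01 (limma SE 0.28, 95% interval -0.67 to 0.64, adjusted p 0.975). *Cry2*, its paralogue, had a level of 8.79, 7.86 and 9.20 at 12 months and of 9.11, 8.29 and 9.34 at 3 months. The ages of *Cry2* overlapped, with a difference of -0.30 (limma SE 0.44, 95% interval -1.35 to 0.75, adjusted p 0.658), which was 0.08 without 12-month replicate 2. Intervals of this width leave room for differences of a fold of 2 or more for *Per3* and *Cry2*, so that a like level at both ages is not shown.

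*Nr1d1*, the repressor of *Bmal1*, passed neither threshold. Its level was 11.69, 12.21 and 12.65 at 12 months and 11.49, 11.14 and 11.24 at 3 months, and the groups did not overlap. The difference was 0.89 (limma SE 0.31, 95% interval 0.16 to 1.62, adjusted p 0.104), or 1.86-fold. A second probe of *Nr1d1* gave 11.63, 12.13 and 12.58 against 11.70, 11.16 and 11.17, with an overlap of 12-month replicate 1 and 3-month replicate 1 and a difference of 0.77 (limma SE 0.33, adjusted p 0.156). In GRCr8, *Nr1d1* shares 1061 bases with *Thra*, the thyroid hormone receptor gene on the opposite strand. The *Thra* probe differed by 1.35 (adjusted p 0.136), and whether the labelling kept the strand is not given in the sources used here, so that the value of *Nr1d1* is uncertain to that extent.

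*Dbp*, the output gene, was not called in either direction. Its level was 12.64, 13.35 and 13.54 at 12 months and 14.05, 13.31 and 13.00 at 3 months, with the highest array in the younger group and the lowest in the older. The difference was -0.28 (limma SE 0.38, 95% interval -1.18 to 0.62, adjusted p 0.628), and it was 0.02 without 3-month replicate 1.

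The other clock genes, 23 in a list of activator partners, ROR receptors, output factors, further repressors and enzymes that act on clock proteins, had a matched probe in 14 cases, and all 14 were tested. None passed the adjusted threshold, and their median difference was -0.28, against -0.17 over all tested probes. At an unadjusted p under 0.05, 2 were higher and 2 lower, as were 13.7% and 18.8% of all probes. Those without a matched probe included *Hlf*, *Bhlhe41*, *Fbxl21* and *Fbxw11*. Among the output factors, *Tef* had a level of 9.54, 9.82 and 10.66 at 12 months and of 10.85, 10.28 and 10.15 at 3 months, with a difference of -0.42 (adjusted p 0.449). *Nfil3*, which encodes the repressor at D-boxes, was lower on each 12-month array (11.31, 11.05 and 10.55) than on any 3-month array (11.66, 11.86 and 11.33). The difference of *Nfil3* was -0.65 (limma SE 0.29, adjusted p 0.177).

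Of the further repressors, *Bhlhe40*, which encodes a factor that competes at E-boxes, differed by 0.45 (adjusted p 0.330), *Ciart* by 0.32 (adjusted p 0.550) and *Cipc* by -0.31 (adjusted p 0.391), with overlapping ages for each. *Timeless* had a level of 7.78, 7.25 and 8.06 at 12 months and of 6.50, 7.41 and 6.45 at 3 months, a difference of 0.91 (limma SE 0.37, adjusted p 0.142) with 3-month replicate 2 inside the range of the older group. Among the enzymes, *Csnk1e*, which encodes casein kinase 1 epsilon, a kinase of PER proteins, was called lower at the fold threshold. Its level was 6.24, 7.01 and 6.90 at 12 months and 9.17, 7.38 and 7.43 at 3 months. The difference of *Csnk1e* was -1.28 (limma SE 0.53, adjusted p 0.150) with 3-month replicate 1 well above the other arrays. The call was lost without that array, without 12-month replicate 1 and without 12-month replicate 2. The remaining pair past an unadjusted p of 0.05, named after their values were seen, was *Gsk3b*, a kinase of several clock proteins, with -0.92 (limma SE 0.26, adjusted p 0.0730), and *Ppp1cb*, a phosphatase subunit, with 0.95 (limma SE 0.23, adjusted p 0.0535).

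**Figure D2:**
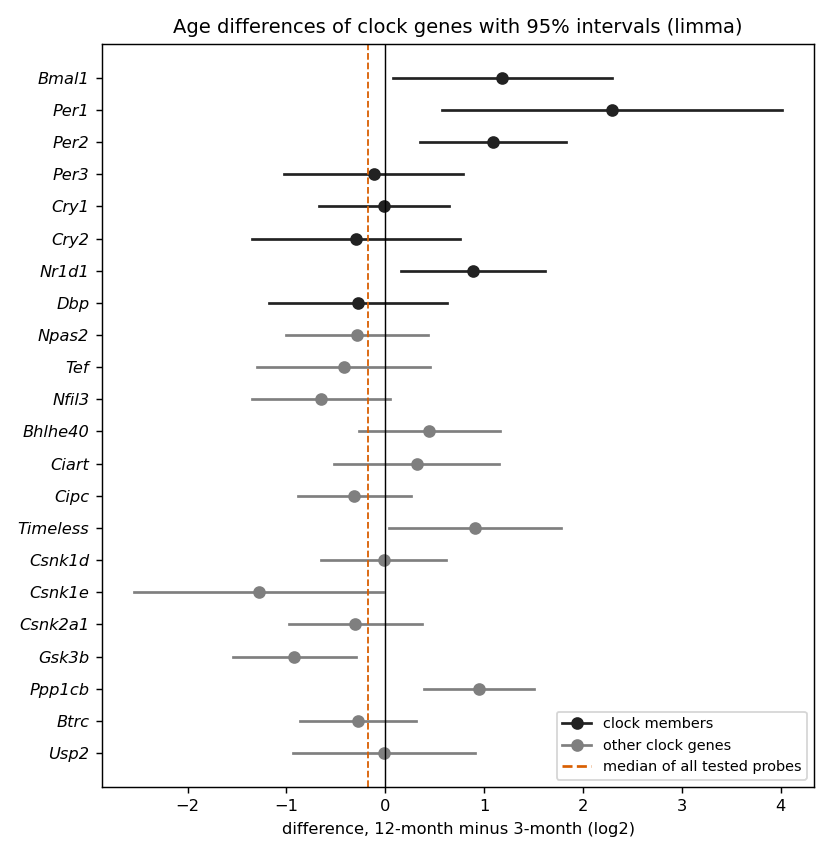
Log2 difference (horizontal axis, 12-month minus 3-month) of each tested clock gene, members in black and other clock genes in grey, with the 95% interval from limma. The solid line marks 0 and the dashed line the median of all tested probes, -0.17. The intervals of *Bmal1*, *Per1*, *Per2* and *Nr1d1* lie above 0, and those of the other 4 members span it.

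The arrays of one age also differed among themselves. Each array was set against the mean of its age, and since the 3 deviations of an age sum to 0 they are given as a description without a test. On 12-month replicate 1 *Bmal1* deviated by 0.30, and *Dbp*, *Nr1d1*, *Tef* and *Per3* by -0.54, -0.49, -0.46 and -0.26. On 12-month replicate 3 each of these had the opposite sign, with -0.33 for *Bmal1* and 0.36, 0.46, 0.65 and 0.31 for the others. Not all clock genes went this way. *Ciart* had the signs of *Bmal1* on these arrays, with 0.18 on 12-month replicate 1 and -0.45 on 12-month replicate 3. *Npas2* was below its mean on both, by -0.31 and -0.22. At 3 months replicate 1 was the highest of its age for *Dbp*, *Nr1d1*, *Tef* and *Per3*, by 0.60, 0.20, 0.42 and 0.76, while *Bmal1* was near its mean there, at -0.08.

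The deviation of *Nr1d1* had the sign of that of *Dbp* on 6 of 6 arrays, and those of *Per3* and *Tef* did so on 5 of 6. The enzyme gene *Csnk1e* also matched *Dbp* on 6 of 6 arrays, whereas *Per1*, *Per2*, *Cry1* and *Cry2* did so on 1, 2, 1 and 3 of 6. Of 11147 other genes, 1.7% matched *Dbp* on all 6 arrays and 10.9% on at least 5. *Per3*, *Tef* and *Cry2* had the sign opposite to *Bmal1* on 5 of 6 arrays, and *Dbp* and *Nr1d1* on 4 of 6. *Nfil3*, *Npas2* and *Cry1* followed *Bmal1* instead, with the opposite sign on 1 of 6 each, and *Ciart* had it on 2 of 6. Of the other genes, 9.28% had the sign opposite to *Bmal1* on at least 5 arrays and 28.4% on at least 4. *Per1* went with *Egr1*, an immediate early gene named here after its values were seen, on 6 of 6 arrays, as did 1.93% of the other genes. Both probes were dim, each well above background on 2 of 3 arrays at either age. 12-month replicate 2 was the lowest of its age for *Per1* and *Cry2*, and for *Egr1* and *Fos* as well.

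**Figure D3:**
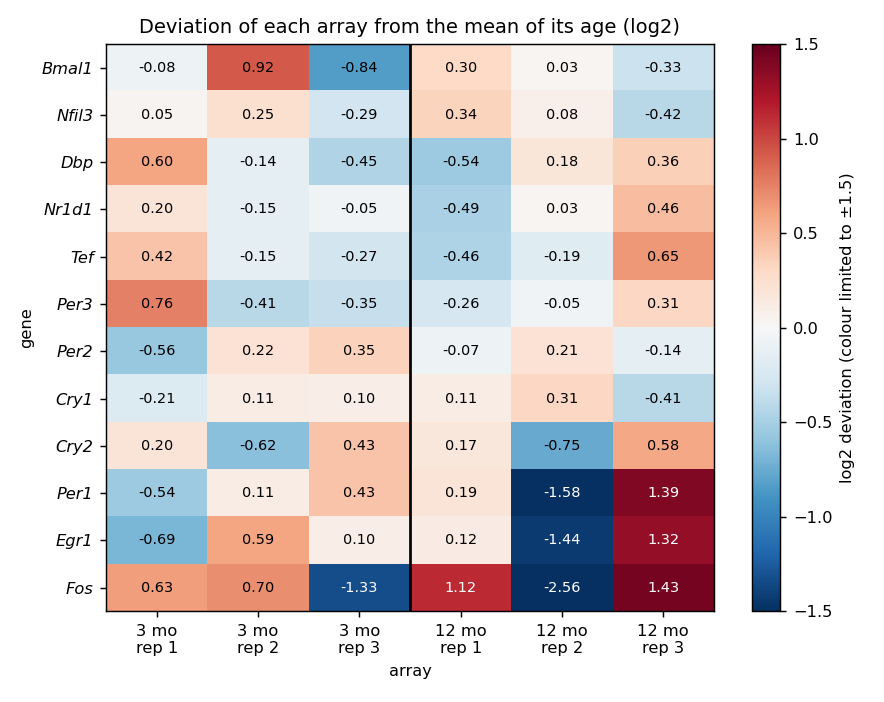
Deviation of each array from the mean of its age (log2, printed in each cell; colour limited to 1.5 in either direction) for 10 clock genes and the immediate early genes *Egr1* and *Fos*. *Dbp*, *Nr1d1*, *Tef* and *Per3* are all below their mean on 12-month replicate 1 and above it on 12-month replicate 3, and *Bmal1* is the reverse on both. Other clock genes, among them *Ciart* and *Npas2*, which did not go this way, are not drawn.

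Over all 6 arrays, the genes most like *Bmal1* among 11147 others were *Slitrk6*, *Cdk20*, *Tatdn3*, *Acp1* and *Spock3*, with Pearson r of 0.997, 0.992, 0.991, 0.990 and 0.989. Those most like *Dbp* were *Ptrhd1*, *Uchl1*, *Adss2*, *Ccdc91* and *Ctxn2*, with r of 0.972, 0.965, 0.943, 0.937 and 0.931. *Per3* and *Tef* stood at rank 32 and rank 37 for likeness to *Dbp*, with r of 0.870 and 0.867, while *Nr1d1*, which differed more between the ages, stood at rank 4097 with r of 0.162. *Dbp* and *Bmal1* had an r of -0.27. With 6 arrays in 2 age groups, and the best of many genes taken, such values are a description only.

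Transcripts driven by the clock or by its resetting signals were set beside the members. *Nampt*, which encodes an enzyme of NAD synthesis and is driven by BMAL1 and CLOCK, had a level of 10.42, 10.74 and 10.57 at 12 months and of 9.15, 9.37 and 7.21 at 3 months. Its groups did not overlap, as was so with the 12-month arrays higher for 16.5% of all probes, and 3-month replicate 3 was lowest. The difference of *Nampt* was 2.00 (limma SE 0.57, 95% interval 0.65 to 3.36, adjusted p 0.0728). The remaining 2 outputs of that list, *Wee1* and *Por*, had lower means at 12 months and were not called. They differed by -0.62 (limma adjusted p 0.202) and -0.12 (adjusted p 0.761), and the median difference of the list was -0.12.

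Glucocorticoids reset clocks in peripheral tissues and induce *Per1*. Of 6 genes known to respond to them, 5 were tested, and *Tsc22d3*, *Klf9* and *Sgk1* rose at the adjusted threshold, which 5.31% of all probes passed in that direction. With *Dusp1*, 4 of 5 were called higher at the fold threshold, against 10.1% of all probes, and the median difference of the list was 1.55. *Tsc22d3*, which encodes the leucine zipper protein GILZ, had a level of 10.44, 9.87 and 10.23 at 12 months and of 5.86, 6.41 and 7.59 at 3 months, a difference of 3.56 (limma SE 0.46, adjusted p 0.0108) or 11.8-fold. When 1 array was left out, it lost the adjusted call only without 12-month replicate 1 (adjusted p 0.0551). The call was also lost with the methods' t-test (adjusted p 0.0642), the block of 3 pairs, the block of numbered pairs, 4 arrays and the paired form of the methods' t-test, and its adjusted p ranged from 0.00188 to 0.267 over the alternatives.

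*Klf9*, a transcription factor gene, had 7.24, 6.49 and 8.53 at 12 months against 4.31, 5.55 and 4.09 at 3 months, a difference of 2.77 (limma SE 0.61, adjusted p 0.0426). *Sgk1*, a kinase gene, had 11.85, 11.70 and 10.91 against 10.21, 10.07 and 10.22, a difference of 1.32 (limma SE 0.31, adjusted p 0.0478). The adjusted call of *Klf9* held in 2 of the 6 fits that left out 1 array, and that of *Sgk1* in 0 of 6. With normexp the difference of *Klf9*, a dim probe, was 1.37 (adjusted p 0.0614). With the 75th percentile shift only *Tsc22d3* of the list passed the adjusted threshold, and with either block, the methods' t-test, its paired form or 4 arrays 0 genes of the list did. *Dusp1*, a phosphatase gene, differed by 1.55 (limma SE 0.38, adjusted p 0.0537), and *Fkbp5*, a chaperone gene of the glucocorticoid receptor, by 0.91 (limma SE 0.29, adjusted p 0.0904), each higher on every 12-month array than on any 3-month array. *Zbtb16* was near background throughout and was not tested. Whether these transcripts and *Per1* moved for a common reason was not tested.

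Of the 7 immediate early genes tested, none passed the adjusted threshold, and their median difference was 0.79. *Fos* alone was called higher at the fold threshold, a call made for 10.1% of all probes. It had 10.02, 6.33 and 10.33 at 12 months, 6.27, 6.33 and 4.31 at 3 months, and a difference of 3.26 (limma SE 1.13, adjusted p 0.106). To 2 decimals, 12-month replicate 2 was level with 3-month replicate 2. *Egr1* differed by 0.97 (adjusted p 0.366), with overlapping ages. None of the 5 temperature-responsive genes tested was called at either threshold, and their median difference was -0.57.

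**Figure D4:**
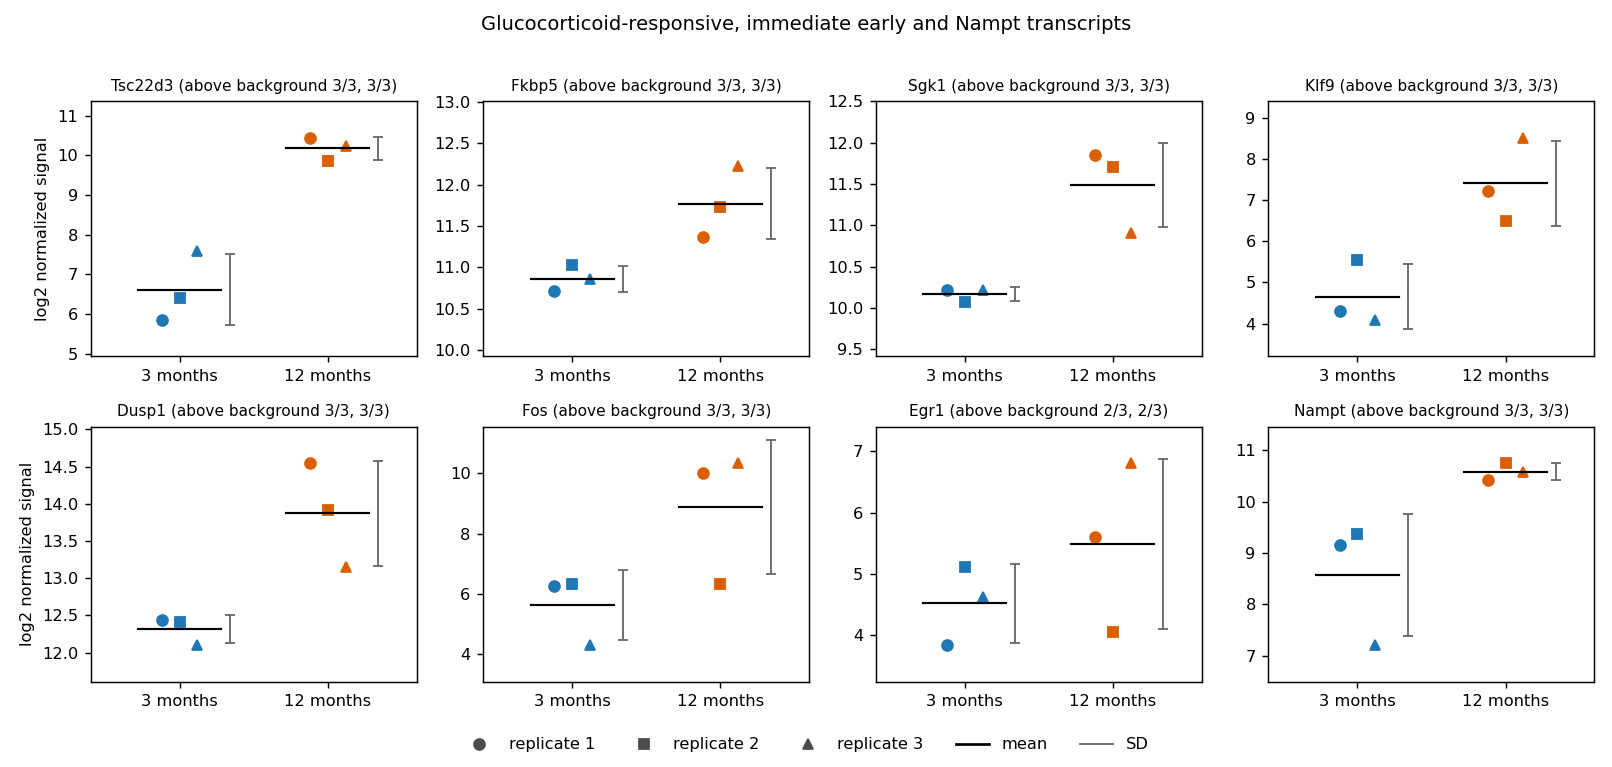
Log2 quantile-normalized signal (vertical axes, each panel with its own range) of 5 glucocorticoid-responsive genes, *Fos*, *Egr1* and *Nampt* on the 3 arrays of each age, with the group mean (black line) and SD (grey bar). Panel titles give the number of arrays well above background at 3 months and then at 12 months. The ages overlap for *Egr1* only, where 12-month replicate 2 (square) lies below some of the 3-month arrays. For *Fos* that array lies barely above the highest 3-month array.

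Islet RNA is a mixture, in which fewer cells of a type and less RNA per cell cannot be told apart, and markers of some cell types moved with age. Of all probes, 5.31% passed the adjusted threshold higher and 3.03% lower, and 10.1% and 11.9% passed the fold threshold. Of 7 nerve and Schwann cell markers tested, *Sox10* and *Prph* fell at the adjusted threshold, *Sox10* with no value on 3-month replicate 1, and 4 were called lower at the fold threshold. Their summed level lay between 11.1 and 11.6 at 12 months and between 12.3 and 13.0 at 3 months. Of 5 stellate and mesenchymal markers tested, *Pdgfrb* rose at the adjusted threshold and 4 were called higher at the fold threshold, with a summed level of 14.6 to 16.0 at 12 months and of 13.2 to 14.1 at 3 months. The beta cell marker *Slc30a8* and the delta cell marker *Hhex* also rose, 1 of 6 beta cell and 1 of 8 other endocrine markers tested. No marker of acinar, duct or immune cells passed either threshold, but 12-month replicate 2, the array without which *Per1* and *Cry2* moved most, stood low for some of them, named after their values were seen. The acinar enzyme gene *Cel* was at 14.36 on that array, against 17.36 and 17.88 on the other 12-month arrays and 14.82 on 3-month replicate 3, and *Cd74*, an immune marker, at 5.19 against 10.49 and 11.02. The summed immune level was 14.3 there, against 16.2 and 15.0, and *Lyz2*, one of its genes, was at 13.5 against 15.8 and 14.5. Other markers did not go this way. The immune markers *Ptprc*, *Cd3e* and *Csf1r* were lowest of their age on 12-month replicate 3, and *Cd68* was highest on 12-month replicate 2. The acinar genes *Amy2a3*, *Pnlip* and *Cpb1* were not lowest on 12-month replicate 2. Of 6 endothelial markers tested, 1 was called higher and 2 lower at the fold threshold, and of 2 red blood cell markers 1 was called lower. The part of these cell types in the differences of the clock genes was not tested.

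**Figure D5:**
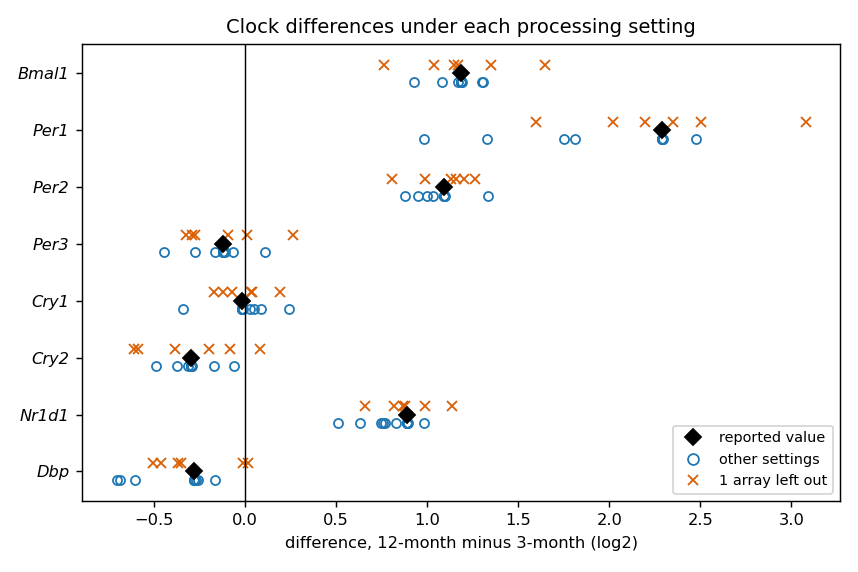
Log2 difference (horizontal axis, 12-month minus 3-month) of the 8 tested members as reported (diamonds), under the other processing settings (circles) and with each array left out in turn (crosses). *Bmal1*, *Per1*, *Per2* and *Nr1d1* stay above 0 in every setting drawn, and *Per3*, *Cry1*, *Cry2* and *Dbp* fall on both sides of it.

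The direction of the members that were higher at 12 months was kept by every setting tried, as the plot of settings shows, while the size and the calls were not. The difference of *Bmal1* ranged from 0.76 to 1.65, that of *Per1* from 0.98 to 3.08, that of *Per2* from 0.81 to 1.33 and that of *Nr1d1* from 0.51 to 1.14. Without 3-month replicate 1, the array with the lowest signal before normalization, the differences of *Bmal1*, *Per1*, *Per2* and *Nr1d1* were 1.15, 2.02, 0.81 and 0.99. *Per1* was not fitted in the setting that required signal above background on all 6 arrays. No member was called higher at the fold threshold without 3-month replicate 1, 1 was without 12-month replicate 2, and none was when only the 4 arrays whose label names share an ending were used.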

How the data were processed

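Each of the 6 deposited scanner files gives, per its header, the intensity of every spot from Agilent Feature Extraction 11.0.1.1, background-subtracted and not normalized between arrays, beside uncorrected median intensity and quality marks, which are other columns used here as deposited. The authors also deposited a table of quantile-normalized log2 values, which served as an alternative. Arrays have no read depth, and their number limits the precision. Age came from the labels.

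The log2 of background-subtracted intensity was averaged over the unmarked spots of a probe (each clock member probe has 1 spot) and quantile normalized over the 24684 probes that are not controls. Probes were kept when well above background on at least 3 of 6 arrays (17946 probes), and 17943 could be tested. No spot was marked as saturated. Names came from RefSeq accessions without versions, matched to a table of GRCr8, for 14294 probes. The array design uses another build, so only the promoter windows of RefSeq carry coordinates. For a gene with several probes (293 genes) the brightest was used. The test of age was that of limma 3.58.1 under R 4.3.3 (lmFit, then eBayes; two-sided, without a block), and p-values were adjusted by Benjamini-Hochberg over all tested probes. The step was also run on simulated data with independent normal noise. That simulation held no array, scan or background effects, so it cannot show how the step behaves under them.

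Named were the members, the clock factors that bind DNA or repress, and the 5 genes most like *Bmal1* and *Dbp*. Of the other gene lists, those past either threshold were named. Cell type markers past the fold threshold alone were counted and not named. Some genes past neither threshold were named as well. Some listed genes enter the counts and are not reported here individually. Members and lists were chosen with earlier results of these data known. Alternatives were a shift to a common 75th percentile, normexp with an offset of 50, the authors' table, no filter or signal on all arrays, array weights, robust variances with an intensity trend, blocks, plain t-tests (the methods' t-test), 4 arrays, other probes, and each array left out.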

Additional observations from a re-analysis of the deposited data

How the results depend on the processing

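The arrays number 3 a group, and dim probes such as those of *Clock* and *Per1* lie near background. With array weights, which gave 12-month replicate 1 a weight of 8.56 and no other array more than 0.918, *Bmal1* (1.30, limma adjusted p 0.0418), *Per1* (2.47, adjusted p 0.0151) and *Per2* (1.00, adjusted p 0.0231) passed the adjusted threshold, so that 3 members did, in place of 0. With an intensity trend and robust variances 1 did, *Per2* (1.09, adjusted p 0.0494). The difference of *Per3* turned positive with 4 arrays (0.11), and that of *Cry1* with normexp (0.029), array weights (0.051), 4 arrays (0.089) and the replicate block of the numbered pairs (0.24). With each array left out, the difference ranged from 0.76 to 1.65 for *Bmal1*, from 1.60 to 3.08 for *Per1*, from 0.81 to 1.26 for *Per2*, from -0.32 to 0.26 for *Per3*, from -0.17 to 0.19 for *Cry1*, from -0.61 to 0.081 for *Cry2*, from 0.66 to 1.14 for *Nr1d1* and from -0.50 to 0.019 for *Dbp*. Without 1 array, 0 to 1 members passed the adjusted threshold higher and 0 to 3 the fold threshold, which 1 passed with the 75th percentile shift, normexp, the block of numbered pairs and the methods' t-test, and 0 with 4 arrays and the paired t-test, in place of 3. The shift moved the median of all probes by -0.23, to -0.40, and relative to that median *Bmal1*, *Per1*, *Per2* and *Nr1d1* stayed above 0 in every setting.

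Of the 14 other clock genes, 1 passed the adjusted threshold higher with normexp, the authors' table, no filter, signal on all arrays and the intensity trend, and 2 with array weights, in place of 0, while 1 with normexp and 2 with array weights passed it lower. At the fold threshold, 1 was called higher with normexp in place of 0, and 0 were called lower with the shift, normexp, no filter, the block of 3 pairs, both t-tests and 4 arrays, 2 with array weights, in place of 1. Without 1 array 0 to 2 were called higher and 0 to 2 lower. Over all probes, the 1496 adjusted calls became 2339 with no filter, 5693 with array weights, 97 with the block of 3 pairs, 435 with the methods' t-test, 1 with the paired t-test, 0 in the block of numbered pairs and 0 with 4 arrays, and 208 to 2163 without 1 array. The 3953 calls at the fold threshold became 2102 with normexp, 2379 with the authors' table, 1552 with the paired t-test and 2604 with 4 arrays, and 3122 to 4885 without 1 array. The causes were not tested. Arrays numbered 1 and 2 at both ages correlated in their deviations with r of -0.01 and -0.31. The third pair, formed by elimination because the label of that 12-month array carries no number, correlated with r of -0.26. The numbers were not taken to pair the arrays, and the paper does not state which arrays were paired for its lists of changed genes.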
